A study of Homo sapiens with 8 samples.

Results

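The genes described here are the named antisense RNAs that were well counted in J82 cells. A gene was taken when its current symbol ends in -AS and a number and its counts summed to 500 or more over all 8 libraries, and 239 of the 57820 genes in the deposited table were taken. The table holds 1767 genes with such a symbol, of which 1209 had at least 1 count and 242 had 500 or more. GAS6-AS1, MME-AS1 and HOXA-AS3 reached 500 counts and were left out by the choice of members. The members were thus chosen by their summed count, so their level is a description, whereas the difference between populations was not used in the choice.

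J82 is an established human bladder cancer cell line, and the study asked what sets its drug-resistant side population apart from the other cells of the same culture. Side population (SP) cells are those that keep little of the DNA dye Hoechst in flow sorting, and non-side population (NSP) cells are all others. Each population gave 4 RNA-seq libraries of sorted J82 cells, with no added treatment or genetic change in either population and with shared replicate numbers (1 to 4). The sources do not state whether the replicates came from separate cultures, so the p-values measure the spread between these libraries, which may be technical.

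A natural antisense RNA is transcribed from the strand opposite to a gene, and by convention it carries the name of that gene, its sense gene. Some antisense RNAs start near the sense promoter and run away from it, whereas others cross exons of the sense gene and could pair with its transcript. They are known for acting on the sense gene in cis, on chromatin, or as RNAs that bind microRNAs and proteins, and many have no known role.

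Because antisense exons and sense exons can occupy the same bases, counts for the 2 genes can be told apart only by strand. The sources used here leave the strand setting of the counts unnamed, so the counts listed under an antisense name cannot be told apart from reads of the other strand where the exons cross. The sequences below show examples of such crossings in called members, each a stretch in which the shared bases are coding, read from GRCh37 and written 5′ to 3′ on the strand of the antisense RNA. Capitals mark the bases shared by the antisense exon and the exon on the other strand, and lower case marks flanking antisense exon sequence outside them. The first exon of COL4A2-AS1 (chr13:111160446-111160526, minus strand) lay wholly within coding sequence of COL4A2, a chain of the type IV collagen of basement membranes. The first exon of IL6-AS1 (chr7:22767187-22767239, minus strand) lay wholly within coding sequence of IL6, the inflammatory cytokine interleukin 6, and the IL6 strand of the same bases is given beside it. In LAMA5-AS1 (plus strand) the shared bases, chr20:60928190-60928307, were coding sequence of LAMA5, a laminin chain of basement membranes. In GPR84-AS1 (plus strand) the shared bases, chr12:54803334-54803381, belonged to ITGA5, the fibronectin receptor subunit integrin alpha 5, and not to GPR84. In KIF23-AS1 (minus strand) an exon crossed coding bases of PAQR5, a membrane progesterone receptor, at chr15:69689807-69689903. IL6-AS1 also shares untranslated bases with IL6, which are not shown. Another exon of KIF23-AS1 shares 700 bases with PAQR5, 239 coding and 461 untranslated, which are not shown either.
COL4A2-AS1: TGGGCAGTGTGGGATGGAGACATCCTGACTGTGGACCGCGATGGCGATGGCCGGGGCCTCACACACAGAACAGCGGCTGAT
IL6-AS1: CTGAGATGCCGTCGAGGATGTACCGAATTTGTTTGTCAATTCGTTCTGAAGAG
IL6: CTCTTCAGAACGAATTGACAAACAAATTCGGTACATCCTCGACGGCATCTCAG
LAMA5-AS1: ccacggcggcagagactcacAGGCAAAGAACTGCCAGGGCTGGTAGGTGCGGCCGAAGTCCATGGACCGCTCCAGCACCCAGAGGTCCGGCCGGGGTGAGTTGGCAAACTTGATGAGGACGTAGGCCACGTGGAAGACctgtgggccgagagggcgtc
GPR84-AS1: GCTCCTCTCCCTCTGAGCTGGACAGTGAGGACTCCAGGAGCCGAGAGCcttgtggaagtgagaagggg
KIF23-AS1: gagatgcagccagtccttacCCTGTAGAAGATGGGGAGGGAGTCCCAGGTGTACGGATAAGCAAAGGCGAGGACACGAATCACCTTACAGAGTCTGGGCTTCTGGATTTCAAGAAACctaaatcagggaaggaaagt

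Nearly all members had exons that met the other strand. Among the 239 members, 237 (99.2%) had exon bases in common with a gene on the other strand, against 916 of the 1525 annotated -AS genes under 500 counts (60.1%). The median share of a member's exon length that lay across such exons was 25.3%, against 4.02% for the genes under 500 counts. By position relative to the sense gene, 45 members had at least 50% of their exon length across sense exons, 177 had a smaller exon overlap, 10 overlapped the span of the sense gene without meeting an exon, and 3 (TPT1-AS1, SVIL-AS1 and DNAJC9-AS1) lay apart from it. The remaining 4 members have no sense gene of that name in the table. The 2 members without such shared bases were WNT5A-AS1, with a log2 fold change of 0.12 ± 0.28 (SE), and SVIL-AS1, at -0.06 ± 0.20 (SE), and neither was called in SP against NSP cells.

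More counts per kb of exon lay on the antisense RNA than on its sense gene in 222 of the 235 pairs (94.5%). The share was 93.6% to 95.7% in each library taken alone, and the median ratio of antisense to sense counts per kb was 14.8, leaving out the 3 pairs whose sense gene had 0 counts. In the 444 -AS pairs under 500 counts with at least 10 counts in both genes, the antisense RNA had more in 59.9%, with a median ratio of 1.74. The choice of well-counted antisense RNAs favours a high ratio, so these values describe the members and are not tested. Whether the table was counted on the strand of each gene or on the opposite one was not tested, and on the opposite one the counts under each name would stand for reads of the other strand. All 45 members with the larger exon overlap had more counts per kb than the sense gene, as did 165 of the 177 with the smaller overlap and 10 of the 10 that only overlapped its span.

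The level was concentrated in a few members. Together they held 888586 counts, 6.70% of all counts, with 5.98% to 6.63% in single SP libraries and 6.67% to 7.64% in single NSP libraries, so the ranges did not overlap. The 10 most counted members held 43.3% of the members' counts, and without them the shares were 3.56% to 3.96% in SP and 3.59% to 4.14% in NSP cells, which overlap. The counts that follow are those listed under each name, and the strand on which they were counted was not tested. TUBA1B-AS1 was the most counted, with 82507 counts against 1711 for TUBA1B, which encodes an alpha tubulin abundant in dividing cells. RPL30-AS1 had 73928 counts against 1261 for RPL30, a protein of the large ribosomal subunit. VIM-AS1 had 52960 counts and VIM, the mesenchymal intermediate filament protein vimentin, had 5749. The 10 also included MIF-AS1, PCBP1-AS1, RUSC1-AS1, H1-10-AS1, IER3-AS1 and PRPF31-AS1, with 13647 to 41522 counts each. Among pairs with at least 10 counts in each gene, the ratio per kb was highest for PPP1R12A-AS2 (399), PRR11-AS1 (395) and TAPT1-AS1 (219). It was lowest for NR2F1-AS1 (0.115), SBF2-AS1 (0.269) and BHLHE40-AS1 (0.336), which are among the 13 members with fewer counts per kb than the sense gene.

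**Figure D1:**
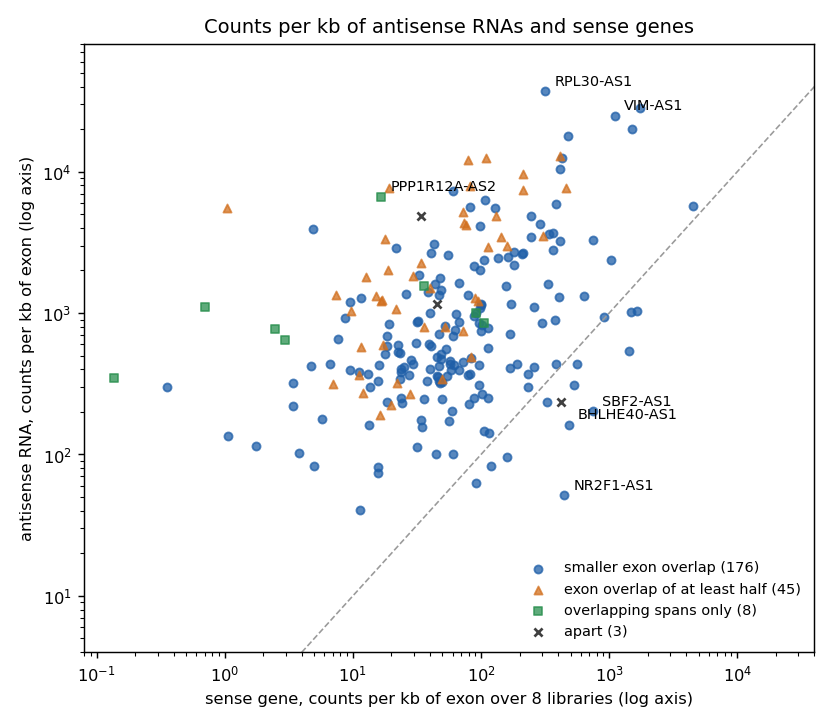
Counts per kb of exon summed over the 8 libraries, for the antisense RNA (vertical, log axis) and the sense gene (horizontal, log axis) of each pair with at least 1 sense count, with symbols by exon arrangement and a dashed line at equal values. Of the 232 pairs plotted, 219 lay above the line, and NR2F1-AS1, SBF2-AS1 and BHLHE40-AS1 lay farthest below it.

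At the count threshold, the members just inside were BCAS3-AS1 with 510 counts, B4GALT4-AS1 and PPP3CB-AS1 with 511 each, VLDLR-AS1 with 515 and CEP250-AS1 with 523. Just outside were KCTD21-AS1 with 490 counts, STEAP3-AS1 with 479, P4HA2-AS1 and TMC3-AS1 with 476 each and KLC4-AS1 with 475. Of the 967 -AS genes with 1 to under 500 counts, 8 belonged to the genes that the choice of members excludes, and of the other 959, 197 had enough counts for a test, and 10 were called between populations (4 higher and 6 lower in SP cells, 5.08% of those tested).

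The comparison of SP with NSP cells used edgeR's quasi-likelihood test on all 9309 genes with enough counts, with Benjamini-Hochberg adjustment over them, and called a gene at an adjusted p under 0.05 and a fold change over 1.3. All 239 members were tested, and 25 (10.5%) were called, 8 higher and 17 lower in SP cells. Over all genes tested, 3.66% were called, 1.63% higher and 2.03% lower, and of the 3546 tested genes with 500 or more counts 5.5% were called, 2.2% higher and 3.3% lower. The median log2 fold change of the members was -0.14, against 0.01 for all genes tested and -0.03 for those with 500 or more counts. Below 0 lay 158 members (66.1%), against 48.2% of all genes tested and 53.9% of those with 500 or more counts. SP and NSP values did not overlap for 39 members (16.3%), against 9.75% of all genes tested and 13.1% of those with 500 or more counts, and 23 of the 25 called members were among the 39. SP and NSP libraries share replicate numbers, but the sources do not state that same-numbered libraries were paired. With the replicate number as a block 64 members (26.8%) were called, 17 higher and 47 lower, against 12.9% of all genes. All 25 calls were kept in that fit. DESeq2 called 8 members higher and 23 lower, and 3.78% of the genes it gave an adjusted p.

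**Figure D2:**
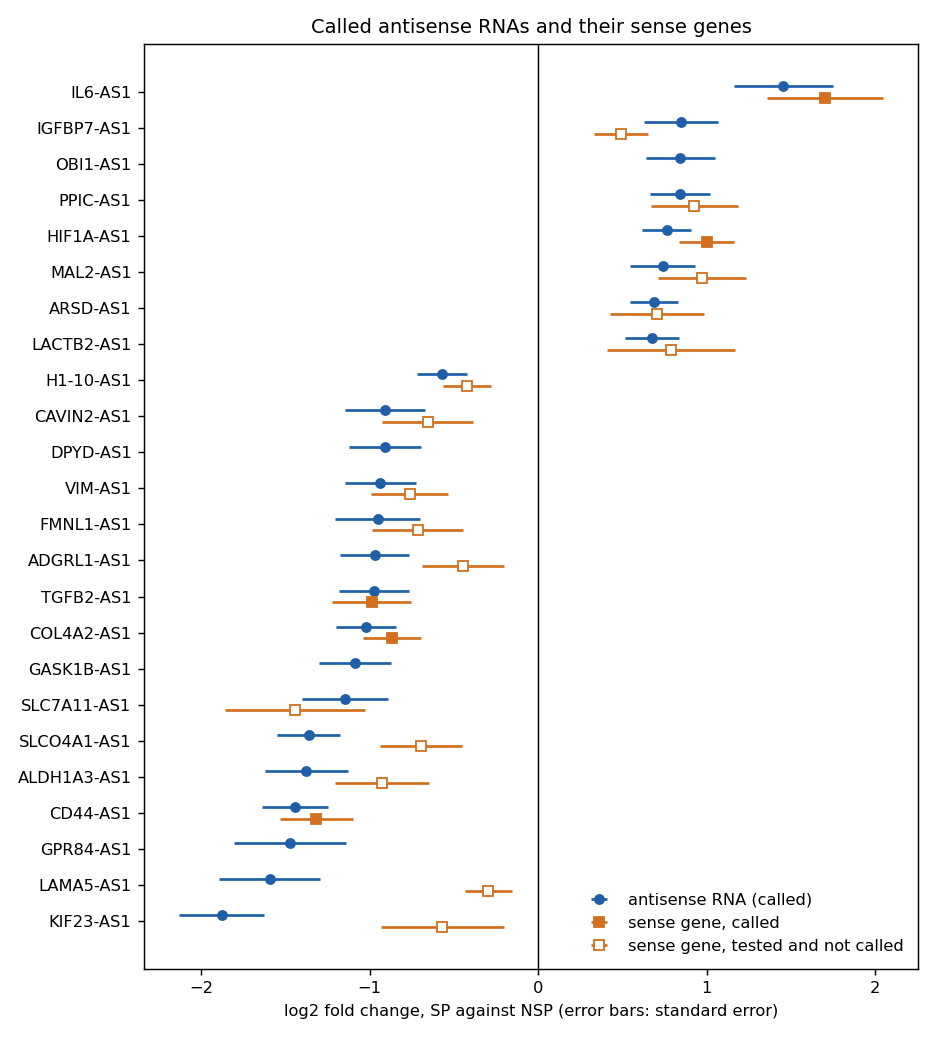
Log2 fold change of SP against NSP cells (horizontal) for the 24 called antisense RNAs that kept their call in at least 1 of the 8 fits without a library (filled circles) and for those of their sense genes that were tested (squares, filled where called), with standard errors as bars and 4 libraries per population. The 20 tested sense genes shown all lie on the same side of 0 as their antisense RNA, and 5 of them are filled.

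Of the members lower in SP cells, KIF23-AS1 and LAMA5-AS1 had the largest differences. Here and in the gene descriptions that follow, a rise or fall is that of the counts listed under a name. The strand on which these were counted was not tested. KIF23-AS1, named after a kinesin of cytokinesis, had 54.8, 33.5, 20 and 28.7 CPM in SP replicates 1 to 4 and 153, 137, 110 and 99.6 CPM in NSP replicates 1 to 4, where CPM is the count scaled to a fixed total after TMM normalization. Every SP library was below every NSP library. The log2 fold change was -1.88 ± 0.25 (SE, adjusted p = 0.000839), while KIF23 itself was at -0.57 ± 0.37 (SE, adjusted p = 0.482), with 158 counts over the 8 libraries. PAQR5, whose exons share 797 bases with KIF23-AS1, was at -0.61 with an adjusted p of 0.437 and 92 counts. LAMA5-AS1 had 41.8, 13.4, 19 and 49.3 CPM in SP cells and 96.8, 87.9, 73.3 and 109.9 CPM in NSP cells. Its highest SP library was below its lowest NSP library, and the log2 fold change was -1.59 ± 0.30 (SE, adjusted p = 0.00834). LAMA5 had 764 to 1000 CPM in SP and 1072 to 1119 CPM in NSP libraries and a log2 fold change of -0.30 ± 0.14 (SE, adjusted p = 0.312).

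CD44-AS1 fell together with CD44, the cell surface receptor for hyaluronan. CD44-AS1 had 171, 168, 138 and 105 CPM in SP and 464, 469, 371 and 279 CPM in NSP replicates 1 to 4. CD44 had 31.0, 49.6, 61.7 and 35.3 CPM in SP and 141, 118, 92.5 and 94.7 CPM in NSP cells. The groups overlapped for neither gene, and the log2 fold changes were -1.44 ± 0.20 (SE, adjusted p = 0.000863) for CD44-AS1 and -1.32 ± 0.22 (SE, adjusted p = 0.00376) for CD44. The exons shared 84 bases. COL4A2-AS1, whose first exon is printed above, had 73.5, 67.7, 46.6 and 81.7 CPM in SP and 149, 132, 143 and 122 CPM in NSP cells, and COL4A2 had 171, 164, 124 and 213 CPM in SP and 356, 303, 297 and 270 CPM in NSP cells. Both genes were lower in every SP library than in any NSP library, at -1.02 ± 0.18 (SE, adjusted p = 0.00522) and -0.87 ± 0.17 (SE, adjusted p = 0.0099).

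TGFB2-AS1 and TGFB2, which encodes a ligand of the transforming growth factor beta family, made the other pair in which both genes were called lower. TGFB2-AS1 had 62.0, 55.0, 27.6 and 42.0 CPM in SP cells and 93.6, 92.4, 87.4 and 90.6 CPM in NSP cells, so the NSP libraries lay close together and above all SP libraries. Its log2 fold change was -0.97 ± 0.21 (SE, adjusted p = 0.0171), and that of TGFB2 was -0.99 ± 0.23 (SE, adjusted p = 0.0274). Without NSP replicate 2 the adjusted p of TGFB2-AS1 was 0.0537. TGFB2 lost its call without any one of NSP replicates 2, 3 and 4 and SP replicates 3 and 4, with log2 fold changes of -0.98, -0.98, -0.93, -0.87 and -0.93 in that order. The 2 genes start 700 bases apart on opposite strands.

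Among the other members lower in SP cells, ALDH1A3-AS1 had 28.7 to 62.3 CPM in SP and 74.7 to 158 CPM in NSP cells, and its log2 fold change was -1.38 ± 0.25 (SE, adjusted p = 0.0061). ALDH1A3, a retinaldehyde dehydrogenase, was at -0.93 with an adjusted p of 0.0817. SLCO4A1-AS1, named after an organic anion transporter, had 43.6 to 78.5 CPM in SP and 134 to 183 CPM in NSP cells. It was at -1.36 ± 0.18 (SE, adjusted p = 0.000863), and SLCO4A1 was at -0.69 with an adjusted p of 0.142. Both sense genes had groups that did not overlap and were called with the replicate block, at -0.91 and -0.67. GASK1B-AS1 was at -1.09 ± 0.22 (SE, adjusted p = 0.0105), and GASK1B had 30 counts in all and was not tested. ADGRL1-AS1, named after the adhesion receptor latrophilin 1, was at -0.97 ± 0.20 (SE, adjusted p = 0.0142), and ADGRL1 was at -0.45 with an adjusted p of 0.389.

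The lower calls that depended on single libraries included SLC7A11-AS1, named after the cystine and glutamate exchanger, at -1.15 ± 0.26 (SE, adjusted p = 0.02). Without NSP replicate 2 or SP replicate 4 its adjusted p was 0.0679 or 0.0539. SLC7A11, at -1.44 with an adjusted p of 0.0702 and 126 counts, was called with the replicate block at -1.42. GPR84-AS1 was at -1.47 ± 0.33 (SE, adjusted p = 0.0212), from 14.0 to 31.7 CPM in SP and 34.6 to 101 CPM in NSP cells, and lost its call without NSP replicate 1, NSP replicate 2, SP replicate 3 or SP replicate 4 (adjusted p 0.0596 to 0.0708). GPR84, a receptor best known from immune cells, had 0 counts in every library. ITGA5, which shares 48 bases with GPR84-AS1, was lower in SP cells at -1.48 (adjusted p = 0.0466).

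VIM-AS1 had 3051, 3080, 2724 and 1908 CPM in SP and 6828, 5501, 4750 and 3517 CPM in NSP replicates 1 to 4. The groups did not overlap, and the log2 fold change was -0.94 ± 0.21 (SE, adjusted p = 0.0215). VIM had 200 to 373 CPM in SP and 354 to 746 CPM in NSP cells, at -0.76 ± 0.23 (SE, adjusted p = 0.0784), and was called with the replicate block at -0.75. Without NSP replicate 1, NSP replicate 2 or SP replicate 4 the adjusted p of VIM-AS1 was 0.0683, 0.0707 or 0.0541. FMNL1-AS1, named after a formin that builds actin filaments, was at -0.95 ± 0.25 (SE, adjusted p = 0.0446) and lost its call without NSP replicate 1 or 2 or SP replicate 2, 3 or 4 (adjusted p 0.0725 to 0.153). FMNL1 was at -0.72 with an adjusted p of 0.181, and was called with the replicate block at -0.66.

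Of the members higher in SP cells, IL6-AS1 rose most. IL6-AS1 had 236, 320, 122 and 388 CPM in SP replicates 1 to 4 and 58.0, 121, 95.0 and 113 CPM in NSP replicates 1 to 4. The lowest SP library and the highest NSP library lay at nearly the same level, and the log2 fold change was 1.46 ± 0.29 (SE, adjusted p = 0.0118). IL6 had 23.1, 38.2, 21.7 and 64.0 CPM in SP and 7.45, 10.4, 12.8 and 14.5 CPM in NSP cells, and rose by 1.70 ± 0.34 (SE, adjusted p = 0.012). For both genes SP replicate 4 was the highest library and NSP replicate 1 the lowest. HIF1A-AS1 had 1081, 1168, 1087 and 966 CPM in SP and 510, 663, 693 and 672 CPM in NSP cells. HIF1A, the oxygen-regulated subunit of hypoxia-inducible factor 1, had 214 to 235 CPM in SP and 82.5 to 136 CPM in NSP cells. The groups overlapped for neither gene, and both rose, by 0.76 ± 0.15 (SE, adjusted p = 0.00949) and 1.0 ± 0.16 (SE, adjusted p = 0.00332) on the log2 scale. Their starts lie 379 bases apart on opposite strands, and their exons share 133 bases.

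**Figure D3:**
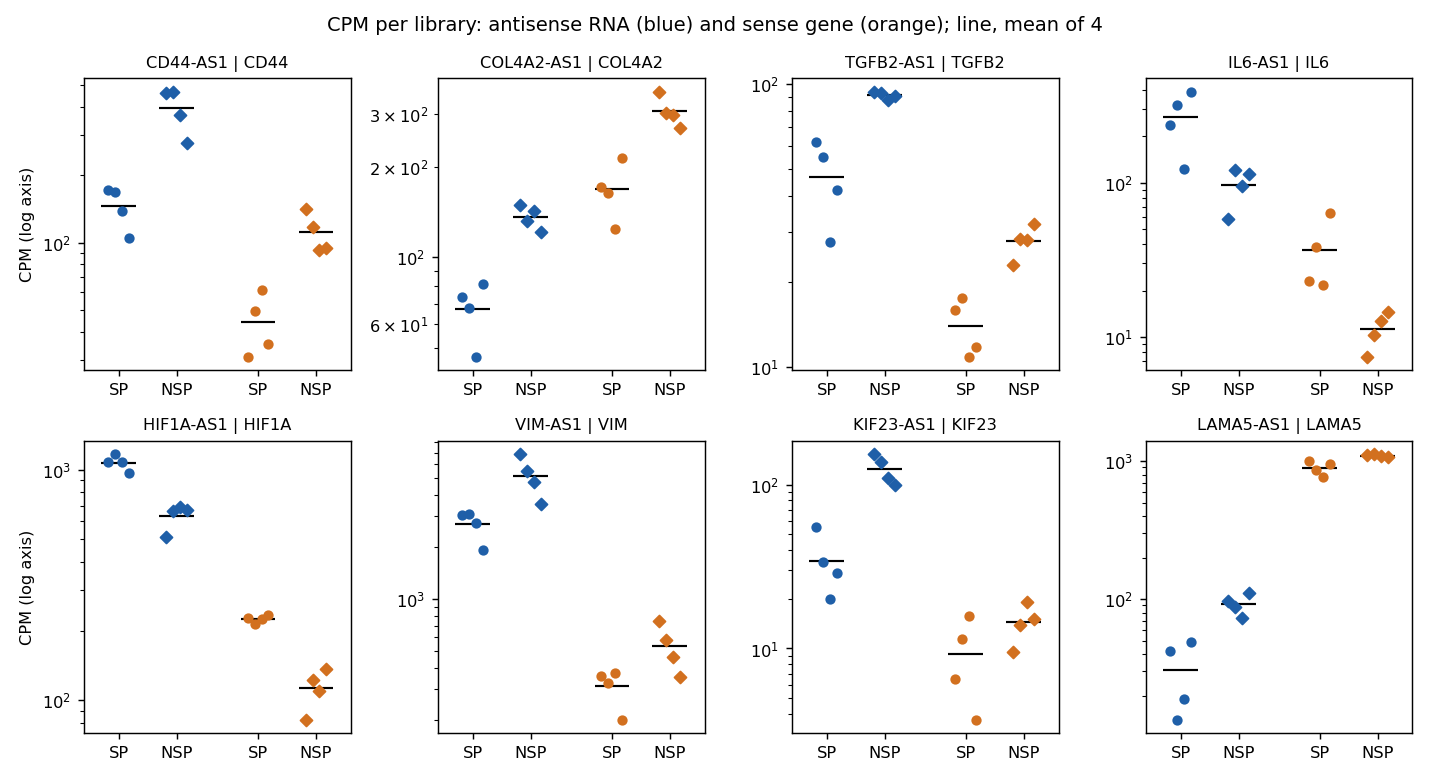
CPM per library (log axis) of 8 antisense RNAs (blue) and their sense genes (orange) in 4 SP (circles) and 4 NSP (diamonds) libraries, with the mean of 4 as a line. CD44-AS1, COL4A2-AS1 and TGFB2-AS1 and their sense genes were lower in SP cells and IL6-AS1 and HIF1A-AS1 and theirs were higher, whereas LAMA5 differed by -0.30 on the log2 scale where LAMA5-AS1 differed by -1.59.

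The remaining called members were named after their values were seen, apart from H1-10-AS1. PPIC-AS1 (0.84 ± 0.18, SE), named after a cyclophilin, and ARSD-AS1 (0.69 ± 0.14, SE), named after a gene of the arylsulfatase family, were higher in SP cells and kept their call without any one library. PPIC was at 0.93 with an adjusted p of 0.0631 and was called with the replicate block at 0.93, and ARSD was at 0.71 with an adjusted p of 0.212. The other 4 higher members were IGFBP7-AS1 (0.85, adjusted p = 0.0434), OBI1-AS1 (0.84, adjusted p = 0.0313), MAL2-AS1 (0.74, adjusted p = 0.0463) and LACTB2-AS1 (0.68, adjusted p = 0.0287). Each kept its call in only 2 of the 8 fits that leave out 1 library. The losses came without NSP replicates 1, 2 and 4 and SP replicates 1, 2 and 4 for IGFBP7-AS1 and MAL2-AS1, without NSP replicates 1, 2 and 4 and SP replicates 1, 2 and 3 for OBI1-AS1, and without NSP replicates 1, 2 and 3 and SP replicates 1, 2 and 4 for LACTB2-AS1, with adjusted p from 0.0539 to 0.139. IGFBP7-AS1 had SP and NSP values that overlapped (249 to 520 against 149 to 280 CPM).

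Other lower members were DPYD-AS1 (-0.91, adjusted p = 0.0272), named after the enzyme that breaks down pyrimidines, CAVIN2-AS1 (-0.91, adjusted p = 0.0446), named after a protein of caveolae, and H1-10-AS1 (-0.57, adjusted p = 0.0446), named after a linker histone. Their calls rested on most libraries. H1-10-AS1 lost its call without any one library but NSP replicate 3 (adjusted p 0.0549 to 0.172). CAVIN2-AS1, whose groups overlapped, lost it without any one but NSP replicate 1 or SP replicate 3 (0.0993 to 0.121), and DPYD-AS1 lost it without NSP replicate 2 or 3 or SP replicate 1 or 4 (0.0569 to 0.0919). Upper-quartile normalization also ended the call of CAVIN2-AS1 (adjusted p = 0.0504), and DESeq2's size factors that of MAL2-AS1 (0.0509). In all, 12 of the 25 calls held in each of the 8 fits that leave out 1 library.

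The sense genes were described by the same fit. Of the 231 sense genes of the members, 200 were tested and 5 (2.5%) were called, against 3.66% of all genes tested. The counts listed under IL6 and HIF1A rose, and those under CD44, COL4A2 and TGFB2 fell. Whether these are reads of the sense strand was not tested. The median log2 fold change of the 200 sense genes was 0.06. With the replicate block 12 sense genes were higher and 15 lower. Of the 25 called members, 21 had a tested sense gene, and all 21 had the same sign as the antisense RNA, whether or not the sense gene was called. Whether the members and their sense genes differ in how often they are called was not tested, and the sense genes had fewer counts.

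Across the 204 pairs in which both genes were tested, the log2 fold changes of antisense RNA and sense gene had a Pearson r of 0.73 and a Spearman rho of 0.65. These pairs share the same 8 libraries and in most cases exon sequence, so the points are not independent and no p is given. For the 85 pairs whose sense gene had 500 or more counts, r was 0.81 and rho 0.76. By arrangement, r was 0.76 and rho 0.69 over 158 pairs with the smaller exon overlap, and r was 0.49 and rho 0.46 over 39 pairs in which at least 50% of the antisense exon length crossed sense exons.

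**Figure D4:**
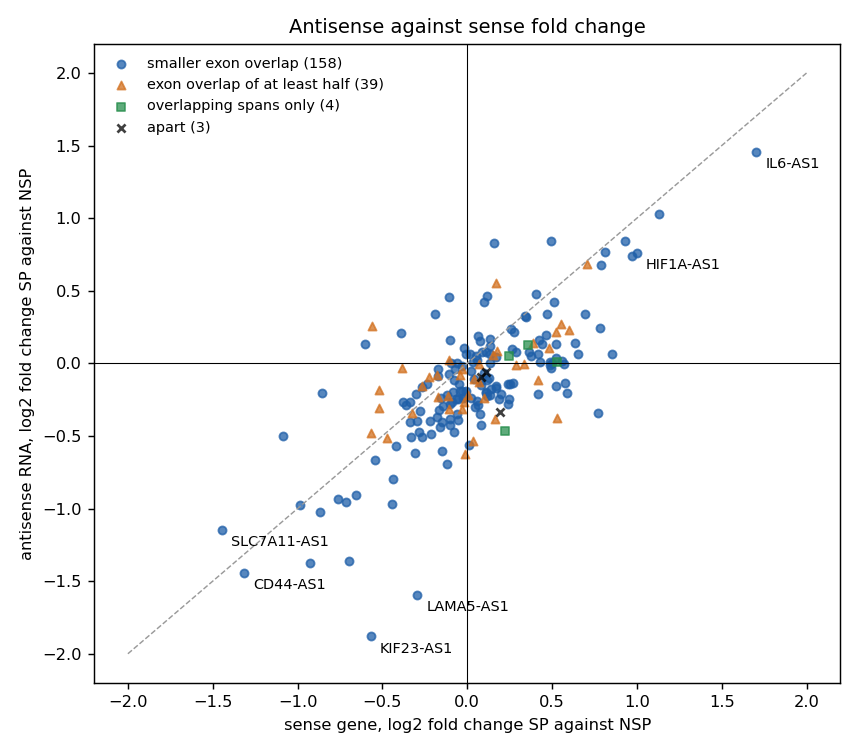
Log2 fold change of SP against NSP cells for each antisense RNA (vertical) against its sense gene (horizontal), for 204 pairs, with symbols by exon arrangement and a dashed line at equal values. Pearson r over the pairs was 0.73, which does not measure closeness to the dashed line. LAMA5-AS1 and KIF23-AS1 are among the pairs below that line.

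The ratio of antisense to sense counts within a library does not depend on normalization and asks whether the 2 genes moved apart. It was computed as log2((antisense count + 0.5)/(sense count + 0.5)) for the 671 -AS pairs with at least 10 counts in each gene, of which 225 were member pairs, and tested by an exact two-sided permutation over the 8 libraries, whose smallest p is 0.0286. SP and NSP ratios did not overlap in 21 member pairs (9.33%), with the antisense share lower in SP cells in 20 and higher in 1 (CNPY2-AS1, 0.76, named after its value was seen), against 6.41% of all pairs. Only pairs that do not overlap can reach an unadjusted p under 0.05, so the 21 member pairs under it are the same pairs. No pair passed the adjustment (percent called 0, lowest adjusted p 0.446). With a smallest p of 0.0286, a pair could pass only if a large part of the 671 pairs had that p. The adjusted permutation test therefore could not decide whether single pairs differ. By limma over all pairs, chosen after seeing the data, 9 of the 671 pairs (1.34%) passed, 3 of them member pairs. The median difference was -0.18 for member pairs and -0.14 for all pairs.

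The 5 member pairs with the largest differences among those that did not overlap all had a lower ratio in SP cells. For LAMA5-AS1 the log2 ratio was -4.57, -5.98, -5.31 and -4.26 in SP and -3.51, -3.67, -3.89 and -3.28 in NSP replicates 1 to 4, a difference of -1.44 (limma adjusted p = 0.0078). The antisense RNA was thus the minor partner by counts in every library, and LAMA5 also shares 244 exon bases with ADRM1 on the other strand. For GEMIN7-AS1, named after a protein of the SMN complex, the ratio was 3.19, 3.71, 2.90 and 3.02 in SP and 3.94, 4.99, 4.14 and 4.36 in NSP cells, a difference of -1.15 (limma adjusted p = 0.181). For PPP1R35-AS1 it was 0.87, 1.42, 0.94 and 1.38 in SP and 1.82, 2.0, 2.17 and 2.41 in NSP cells, a difference of -0.95 (limma adjusted p = 0.0482). In none of these pairs other than LAMA5-AS1 was either gene called by edgeR. SBF2-AS1 differed by -0.83 (limma adjusted p = 0.0415), with ratios of -5.06 to -4.29 in SP and -4.12 to -3.31 in NSP cells, and SBF2 was called with the replicate block at 0.87. DSG2-AS1, named after the desmosomal cadherin desmoglein 2, differed by -0.78, with ratios of 2.22 to 2.67 in SP and 2.74 to 3.87 in NSP cells. The ratios of CD44-AS1 (difference -0.08) and IL6-AS1 (-0.19) overlapped between populations, with exact permutation p of 0.857 and 0.514.

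**Figure D5:**
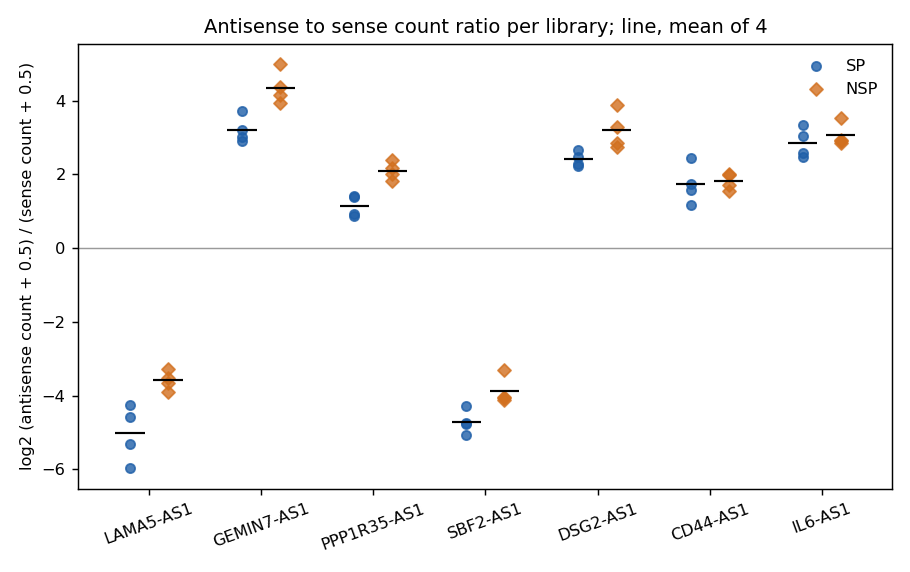
Log2 ratio of antisense to sense counts (each count + 0.5, vertical axis) per library for 7 member pairs, with the 4 SP libraries as circles, the 4 NSP libraries as diamonds and means as lines. The SP and NSP points do not overlap for LAMA5-AS1, GEMIN7-AS1, PPP1R35-AS1, SBF2-AS1 and DSG2-AS1, and they overlap for CD44-AS1 and IL6-AS1.

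Antisense RNAs with described functions were taken as a list. Of 42 such names, 40 are in the table, 18 were tested and 13 are members. Of the 18, HIF1A-AS1 was higher and VIM-AS1 lower, beside 10.5% of members and 3.66% of all genes called, and the median log2 fold change of the 18 was -0.12. AFAP1-AS1 (-0.56, adjusted p = 0.0758), OIP5-AS1 (-0.60, adjusted p = 0.111) and TMPO-AS1 (-0.67, adjusted p = 0.148) were not called by edgeR without the block. With the replicate block these 3 were called, at -0.56, -0.60 and -0.71. The other 8 members of the list were MCM3AP-AS1, PCBP1-AS1, MAPKAPK5-AS1, EGFR-AS1, SBF2-AS1, RUSC1-AS1, THUMPD3-AS1 and TAPT1-AS1, at -0.35 to 0.21, and none was called. The block also called TUBA1B-AS1 (-0.47), PRPF31-AS1 (-0.51), PRR11-AS1 (-0.65), B4GALT4-AS1 (-0.77) and NR2F1-AS1 (0.71).

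The promoters of members were searched for TGTTTAC, the core motif bound by forkhead factors, on both strands of the 250 bases before to 50 after each start in RefSeq (GRCh38.p14). Of 166 members with a RefSeq promoter, 3 held these letters, and of 16 called members with one, 0 did, against 3.42% of 35116 promoters. A match is a description of the letters in that window.

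The libraries held 1431823 to 1697218 counts in SP and 1489033 to 2073526 in NSP cells, and replicates differed by more than sampling noise. The study states many times more raw reads per sample, and why most of them are not among the counts was not tested. Of the markers of bladder tissue, all 6 epithelial ones were detected, among them KRT8 with 47783 counts, but EPCAM had 3 and CDH1 24. The 5 urothelial markers summed to 301 counts, with UPK3A at 0, while VIM, CDH2 and FN1 were all detected. The leukocyte markers PTPRC and CD3E were at 0 and the endothelial markers summed to 2 counts. KRT7 fell by 1.35 and FN1 by 1.25 on the log2 scale in SP cells. The strand of these counts was not tested, so a low marker count is not read as low expression.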

How the data were processed

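The RNA-seq libraries of J82 were made by the authors from mRNA of sorted cells, sequenced as single-end 50-bp reads, aligned to hg19 with STAR and counted with featureCounts against gencode 19. What they deposited is a table of raw, unnormalized counts. Libraries were assigned by column name. Symbols, strands and exons came from GENCODE 44 mapped to GRCh37, which matched 55538 genes (96.1%), and genes without a match held 4.06% of all counts. The exon models of gencode 19 were not used here.

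The quasi-likelihood test of edgeR 4.0.16 (R 4.3.3) was run with TMM scaling after filterByExpr (minimum count 10, minimum total 15), with population as the sole term and at the study's cutoff of adjusted p and fold change. CPM values use TMM-normalized library sizes, errors of means are SD, and the procedures were checked on simulated data. The members and gene lists were chosen with earlier results of these data known. The genes named were the 15 called members with the largest changes, the 5 largest ratio differences that did not overlap, the 10 most counted, the 3 highest and 3 lowest ratios per kb, those whose sense gene was called, the list with described functions and those next to the threshold.

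Same-numbered SP and NSP libraries deviated together from their group means (correlations 0.374, 0.198, 0.318 and 0.315 over 9309 genes for replicates 1 to 4). Libraries with different numbers were not compared in this way. The replicate block, run as an alternative to the unpaired fit, treats same-numbered libraries as pairs. Alternatives were the replicate block, DESeq2 1.42.0, DESeq2's size factors, upper-quartile normalization, other filters, leaving out mitochondrial genes or 1 library, other ratio settings and, chosen after seeing the data, limma 3.58.1 on the ratios, members with 1000 or more counts and members with no exon overlap with the other strand. Some results are not reported here.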

Additional observations from a re-analysis of the deposited data

Results flagged for a closer look

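In 10 of the 202 groups of 4 libraries checked, the highest or lowest library stood apart from the other 3, by a gap divided by the group's range above Dixon's 95% critical value for 4 values. Chance gives about 10.1 such groups at 1 in 20. The value of this quotient was 0.866 for TUBA1B in NSP replicate 3 (159 against 121 to 126 CPM), 0.917 for PCBP1-AS1 in SP replicate 3 (2112 against 2613 to 2659 CPM) and 0.918 for PCBP1 in SP replicate 1 (241 against 203 to 206 CPM). It was 0.837 for HIF1A-AS1 in NSP replicate 1 (510 against 663 to 693 CPM) and 0.847 for SLC7A11 in SP replicate 4 (10.3 against 2.88 to 4.02 CPM).

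The quotient was 0.948 for NR2F1 in SP replicate 1 (87.9 against 227 to 235 CPM) and 0.957 for DSG2-AS1 in SP replicate 1 (86.5 against 73.1 to 73.6 CPM). It was 0.938 for SBF2-AS1 in SP replicate 2 (117 against 70.7 to 73.5 CPM), 0.917 for SBF2 in NSP replicate 1 (613 against 1407 to 1479 CPM) and 0.84 for CEP250-AS1 in NSP replicate 1 (52.7 against 37 to 39.5 CPM). SP replicate 1 and NSP replicate 1 each stood apart 3 times.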

How the results depend on the processing

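With the replicate block 17 members were higher and 47 lower in SP cells, against 8 and 17 without it, and 12 sense genes were higher and 15 lower, against 2 and 3. Without a filter on low counts 7 sense genes were higher and 7 lower, with at least 10 counts in every library 4 were higher, and by DESeq2 7 were lower. Leaving out 1 library gave 4 to 8 higher and 8 to 15 lower members, and 2 to 5 higher and 2 to 4 lower sense genes. The fewest members were called without NSP replicate 2 (4 higher and 8 lower). Among members with 1000 or more counts 11 were lower, since fewer members enter, and among the 2 with no exon overlap with the other strand 0 were higher and 0 lower. Under DESeq2's size factors, upper-quartile normalization and without mitochondrial genes both member counts stayed within 1.5 times.

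Member pairs at an unadjusted ratio p under 0.05 numbered 0 with the replicate block (sign-flip test, smallest p 0.125) and 0 without any one library (smallest p 0.0571), since neither design can reach 0.05, and 32 by limma. Uncalled genes near 0 changed sign in some settings. By DESeq2 AFAP1 was at -0.0073 and PPP1R12A-AS2 at -0.0091, without a filter they were at -0.0095 and -0.0082, and PRR11 was at 0.0080 by upper-quartile normalization. The cause was not tested.

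Leaving out 1 library at a time, the log2 fold change ranged from -0.47 to 0.085 for TUBA1B, from -0.24 to 0.037 for RPL30, from -0.19 to 0.079 for MIF, from -0.13 to 0.028 for PCBP1, from -0.030 to 0.14 for MCM3AP, from -0.10 to 0.17 for AFAP1, from -0.12 to 0.12 for PRR11, from -0.073 to 0.067 for PPP1R12A-AS2, from -0.18 to 0.087 for TAPT1-AS1, from -0.15 to 0.13 for SBF2-AS1, from -0.0078 to 0.38 for THUMPD3-AS1, from -0.041 to 0.22 for MAPKAPK5, from -0.25 to 0.081 for EGFR, from -0.40 to 0.38 for BHLHE40-AS1, from -0.19 to 0.54 for BHLHE40, from -0.29 to 0.0082 for CEP250-AS1, from -0.0094 to 0.18 for BCAS3-AS1 and from -0.044 to 0.32 for BCAS3.

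Low counts limit these results: members have as few as 510 counts over the 8 libraries, and 31 sense genes had too few for a test.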
